A study of Homo sapiens with 20 samples.

Results

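MeS-chetomin, which the labels describe as a sulfide-depleted analog of chetomin, was compared with DMSO vehicle in HCT116 cells, an established human colorectal carcinoma line. The libraries were chosen by their labels. After 5 h there were 2 libraries with MeS-chetomin at 500 nM and 2 with DMSO at 0.5%, and after 12 h there were again 2 and 2. These are 8 of the 20 RNA-seq libraries of the series. The remaining 12 carry chaetocin, chetomin or MeS-chaetocin at 500 nM for the same times, and the chetomin and MeS-chaetocin libraries were used where MeS-chetomin was set directly against another compound. All groups are the same line, for which the labels name no genetic change, and the cells were seeded in 6-well plates and left overnight before treatment. The labels call the 2 libraries of a group biological replicates. They do not say whether these came from separate culture days, so the p-values measure the spread between these libraries.

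Chetomin and chaetocin are fungal epidithiodiketopiperazines, compounds whose disulfide bridge reacts with thiols. Chetomin is known for blocking the binding of the hypoxia factor HIF-1 to p300, and p300 (EP300) and CBP (CREBBP) are paired acetyltransferase coactivators of many transcription factors. The title of the series names chaetocin, p300/CBP and metal response genes. In such a response the zinc sensor MTF1 drives the metallothioneins, which bind metal, and SLC30A1, which exports zinc. The comparison here asks which transcripts differed with the sulfide-depleted analog, and which of the differences were seen at both times.

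The tables give 1 normalized value per gene and library. Its unit is not named, and the values look normalized for library size and gene length. A log2 difference below is the mean of log2(value + 1) with MeS-chetomin minus the mean with vehicle. A gene was called when limma's two-sided p, adjusted by Benjamini-Hochberg over all genes tested in that comparison, was under 0.05. No gene was called at both times. At 5 h, 20 of 14184 genes were called, 0.141% of those tested, and 11 of them were higher and 9 lower with the analog. In bulk RNA, fewer cells making a transcript and less of it per cell cannot be told apart. At the later time, 0 of 15197 genes passed (0%), with a smallest limma adjusted p of 0.821. At an unadjusted p under 0.05 there were 2290 genes at 5 h, 16.1% of those tested, and 416 at 12 h, 2.74%. A difference of at least 1 on the log2 scale was seen for 266 genes (1.88%) at 5 h and for 38 (0.25%) at 12 h.

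The values summed to between 875371 and 1170802 per library, and the smallest steps between low values gave a rough estimate of the effective depth of 24.5 to 39.71 M reads. Those steps were whole for too few genes to rebuild counts. One library of each vehicle group was unlike the rest. In vehicle replicate 1 of 5 h the 10 most abundant genes held 20.29% of the summed values, against 9.696% to 11.47% in each of the other 7 libraries. Vehicle replicate 2 of 12 h differed by base composition. The log2 difference of vehicle 1 minus vehicle 2 at 12 h had a median of 0.472 in the lowest of 5 equal bins of genes by GC content and of -0.34 in the highest bin. For the calls at 5 h and for many of the list medians, values against each single vehicle library are given below. Over all genes the median log2 difference at 5 h was 0.174 against vehicle replicate 1 and 0.059 against vehicle replicate 2. What part these libraries have in a result was not tested. The epithelial identity of the cells was visible in every library, with EPCAM at 187.71 to 342.69 and KRT8 at 1473.7 to 2320.25. Of the markers of other cell types, the liver gene ALB reached at most 0.7 and the monocyte gene CD14 at most 0.16, and the endothelial genes PECAM1, VWF and CDH5, which were read at 12 h only, reached at most 0.07. COL1A1, a collagen of fibroblasts, stood at 1.39 and 2.34 with vehicle and at 3.65 and 4.4 with MeS-chetomin at 5 h and at 5.36 to 9.06 at 12 h. CD68 of macrophages stood at 0.2 and 0.72 against 1.55 and 3.45 at 5 h, ACTA2 of smooth muscle reached at most 4.77, and DES of muscle reached at most 2.06. The part of these markers in the results was not tested.

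The called genes at 5 h were mostly low transcripts that share sequence with a neighbour. Of the 20, 17 (85%) had a mean value under 5, against 36.9% of all genes tested, and 9 (45%) were listed at 0 in both libraries of a group, against 0.705%. Exons of another gene overlapped 18 of them (90%, against 51.1%), and for 10 the neighbour lay on the same strand (50%, against 18.1%). Only 9 (45%) were annotated as protein coding, against 88.4% of all genes tested, and 4 were antisense genes. The kit marked strand, but no source used here says whether the counting used it, so reads of such a gene and of its partner may have been split between them.

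The strongest call was a gene entry named SDHD (ENSG00000255292), which spans GRCh38 chr11:112086903-112193805, plus strand, and whose exons overlap those of SDHD, the anchor subunit of succinate dehydrogenase, and BCO2 and TEX12. Its values at 5 h were 0.92 and 0 with vehicle and 32.3 and 40.7 with MeS-chetomin, so the groups did not overlap. The log2 difference was 4.75 ± 0.34 (SE), with a limma adjusted p of 0.00608. At 12 h the values were 19.7 and 64.7 with vehicle and 24.5 and 0 with MeS-chetomin, a log2 difference of -2.87, and the replicates of both groups lay far apart. Summed with its overlapping genes, the locus stood at 101 and 106 with vehicle and at 116 and 104 with MeS-chetomin at 5 h, a log2 difference of 0.08, and the locus total therefore hardly differed where the single entry did.

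RBM14-RBM4 (ENSG00000248643; chr11:66616626-66646469, plus strand) is the read-through entry of 2 neighbouring genes of RNA-binding proteins, RBM14 and RBM4, which act in splicing and transcription. At 5 h it stood at 5.25 and 5.61 with vehicle and at 34.4 and 33.5 with MeS-chetomin. The log2 difference was 2.44 ± 0.21 (SE; limma adjusted p = 0.00638). At 12 h vehicle was already at 38.6 and 28.0, level with MeS-chetomin at 31.4 and 32.4, and the log2 difference was -0.04. The sum of the entry with RBM14 and RBM4 differed by 0.41 at 5 h and by -0.04 at 12 h. In the other compounds at 5 h the entry varied within a group, with 36.6 and 16.2 under chetomin and 2.68 and 34.3 under MeS-chaetocin.

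MDC1 (ENSG00000137337; chr6:30699807-30717889, minus strand), a scaffold protein of the DNA damage response, was the only called gene with a mean value of at least 5 besides these 2 entries. It stood at 11.6 and 12.1 with vehicle and at 37.6 and 38.4 with MeS-chetomin at 5 h. The log2 difference of 1.60 ± 0.18 (SE) had a limma adjusted p of 0.0251. At 12 h the values were 21.6 and 33.5 with vehicle and 23.1 and 22.5 with MeS-chetomin, so MeS-chetomin lay inside the vehicle range and the log2 difference was -0.23.

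Among the other 8 genes called higher at 5 h, GUSBP14 (chr5:70219918-70258930, minus strand), a pseudogene of the lysosomal enzyme GUSB, stood at 0 and 0.56 with vehicle and at 6.43 and 4.78 with MeS-chetomin. Its log2 difference was 2.39 ± 0.27 (SE; limma adjusted p = 0.0244) at 5 h and -1.02 at 12 h, where vehicle stood at 11.1 and 10.3 and MeS-chetomin at 5.68 and 4.02. The direction was therefore opposite at the 2 times, without overlap at either. AC012254.2 (chr18:47108188-47176345, minus strand) shares exons with HDHD2 and IER3IP1. It was listed at 0 in both vehicle libraries at 5 h and at 4.47 and 6.58 with MeS-chetomin, and at 12 h at 4.92 and 9.43 with vehicle and 3.49 and 0 with MeS-chetomin. RSC1A1, a regulator of a glucose transporter whose gene lies within DDI2, stood at 0.17 and 0.72 against 3.63 and 3.99 at 5 h, and its log2 difference was 1.76 (limma adjusted p = 0.0464) at 5 h and 0.42 at 12 h. AC099329.3, AC118553.2, SLC2A3P1, AC104662.2 and AC018635.1 were the others.

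All 9 genes called lower were listed at 0 in at least 1 library with MeS-chetomin at 5 h. AC114546.3, opposite ZNF770, stood at 12.0 and 5.36 with vehicle and was listed at 0 in both MeS-chetomin libraries. ARAP1-AS1, antisense to the GTPase regulator ARAP1, stood at 11.2 and 4.54 and was likewise listed at 0. For AL355816.2, opposite CEPT1, the vehicle values were 4.07 and 3.63 and both MeS-chetomin values were 0. These zeros can be failed estimates as well as absent transcripts, so no fold is given. The other 6 were AC024267.6, AC008040.5, RPLP1P6, AC011472.3, AC012531.2 and AL136295.1, and of all 9 lower genes 7 are not in the 12 h table.

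**Figure D1:**
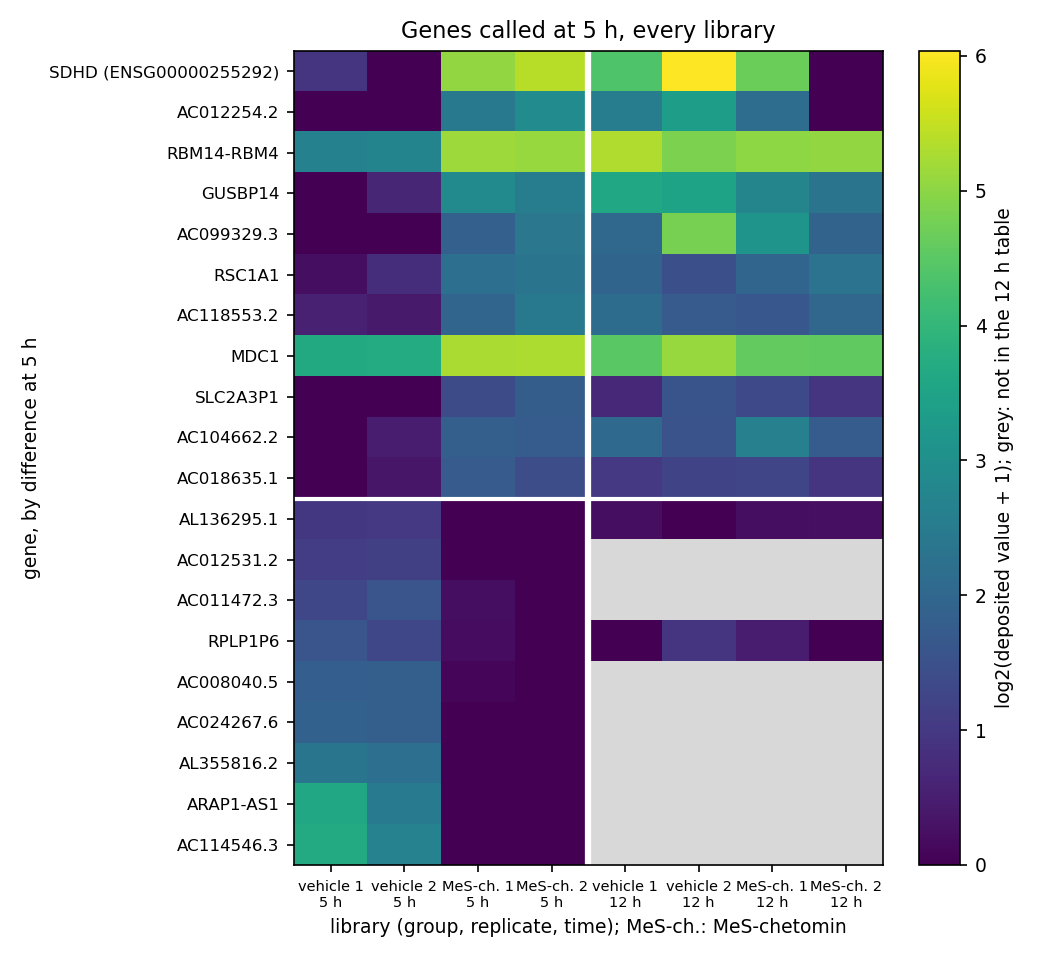
Each row is 1 of the 20 genes called at 5 h and each column 1 of the 8 libraries, with colour giving log2(deposited value + 1) and grey marking genes that are not in the 12 h table. The 11 genes in the upper block are high with MeS-chetomin at 5 h and mostly show no such split at 12 h, and the 9 in the lower block are at or near 0 with MeS-chetomin at 5 h.

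The count of calls varied with the libraries fitted. Leaving 1 out leaves a group of 1, which is then assumed to vary like the other group. Without vehicle replicate 1 at 5 h none of the 20 was called, and limma called 0 genes of 14164. Without vehicle replicate 2 it called 1068, without MeS-chetomin replicate 1 it called 131 and without replicate 2 it called 100, and all 20 were among them each time. When genes constant in the 3 remaining libraries stayed in the fit, a choice made after the data were seen, the last 3 counts were 0, 80 and 59. On the scale of the authors' CPM 16 of the 20 stayed called, 7 higher and 9 lower, and none changed direction.

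Of the 20 called genes, 13 could be tested at 12 h, and 4 of them had the same sign there and 9 the opposite sign. Their differences had a median size of 1.71 at 5 h and of -0.11 at 12 h, counted in the 5 h direction. AC012254.2 and GUSBP14 had an unadjusted p under 0.05 at 12 h too, both in the opposite direction. When the 8 libraries were fitted together, 0 of 14029 genes (0%) were called for the average over both times, with 1740 at an unadjusted p under 0.05 and a smallest adjusted p of 0.0817 for RBM14-RBM4. For the change of the difference between the times limma also called 0, with 1479 at an unadjusted p under 0.05. Its smallest adjusted p was 0.053, for GUSBP14 with a change of -3.41 and for RBM14-RBM4 with -2.48. The log2 differences at the 2 times had a Pearson correlation of 0.07 and a Spearman correlation of 0.14 across 14029 genes, which are not independent and share the depth of their libraries.

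**Figure D2:**
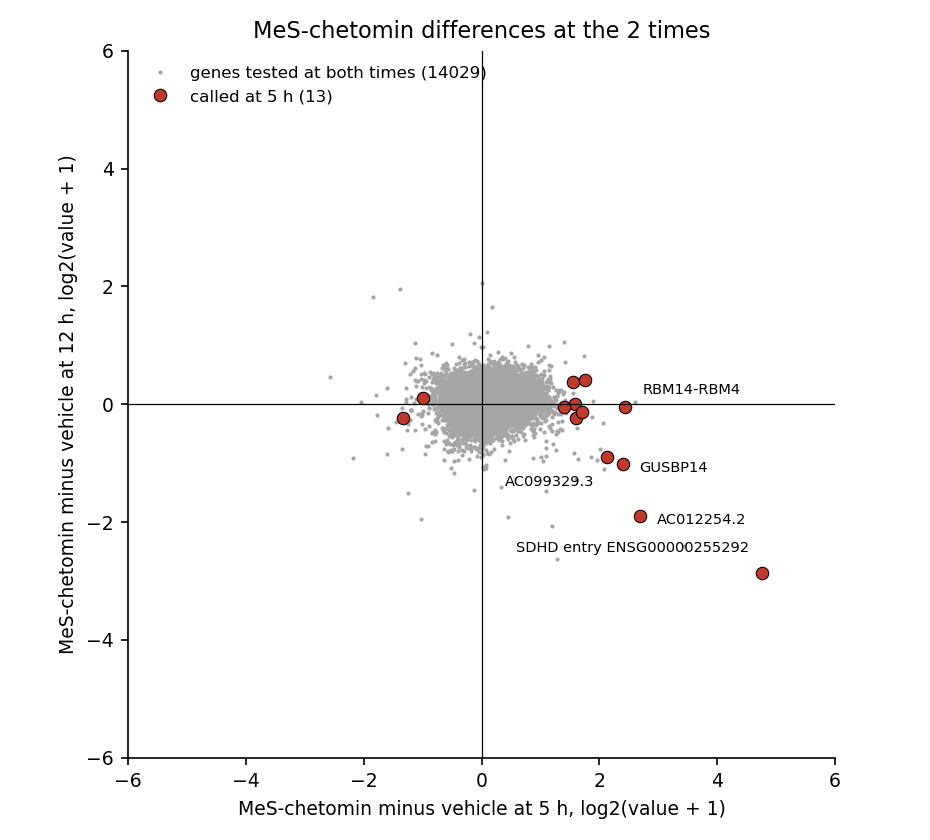
Each point is a gene tested at both times, with its log2 difference between MeS-chetomin and vehicle at 5 h on the horizontal and at 12 h on the vertical axis, and red points are the 13 genes called at 5 h. The red points spread widely along the 5 h axis, while at 12 h most lie near 0 and the SDHD entry, AC012254.2, GUSBP14 and AC099329.3 lie below it.

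Groups that did not overlap were common at each time, and far fewer genes kept their order. At 5 h both MeS-chetomin values lay above both vehicle values for 5270 genes (37.2%) and below for 2295 (16.2%). At 12 h they lay above for 2708 (17.8%) and below for 2381 (15.7%). Random order of 2 against 2 libraries separates the groups with a probability of 0.333. Such counts are therefore not by themselves a result. Of the 14029 genes tested at both times, 1366 (9.74%) were without overlap in the same direction, 1009 of them higher and 357 lower. Another 1099 (7.83%) were without overlap in opposite directions. An unadjusted p under 0.05 at both times was reached by 24 genes in the same direction and by 31 in opposite directions. The 24 are 1.06% of those under 0.05 at 5 h and 6.92% of those under 0.05 at 12 h. A log2 difference of at least 1 at both times was seen in the same direction for 3 genes and in opposite directions for 12. The 3 were BARD1, HBA2 and HIST2H2AA3, singled out after their values were seen. HIST2H2AA3, a histone gene with a near-identical copy, was listed at 3.17 in 1 vehicle library at 5 h, at 13.8 in the other at 12 h and at 0 everywhere else, so 1 library carried each difference and the groups overlapped at 0.

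Genes with a mean value of at least 5 that kept one direction without overlap at both times can only be described, because the order of their values chose them and none was called on average, each with an adjusted p of 0.399. APC, the scaffold that sends beta-catenin to degradation, stood at 2.88 and 4.2 with vehicle and at 7.6 and 7.94 with MeS-chetomin at 5 h. At 12 h it stood at 9.71 and 4.2 against 13.2 and 11.6, which gave log2 differences of 0.96 and 0.84. The vehicle libraries of 12 h thus spanned much of the distance between the groups. BARD1, the partner of the BRCA1 ubiquitin ligase, stood at 3.02 and 5.7 against 7.69 and 20.7 at 5 h. Its values at 12 h were 8.31 and 8.36 against 9.0 and 36.8, and 1 MeS-chetomin library carried most of each difference. UTRN, a cytoskeletal relative of dystrophin, had log2 differences of 1.01 and 0.75. CLOCK, a transcription factor of the circadian clock, had 0.69 and 0.68, and ROCK2, a kinase acting on the actin cytoskeleton, had 0.63 and 0.64. CAPRIN2, EPB41, TAOK1, WASH5P and ZNF827 completed the 10 higher genes named by the rule.

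Among the 10 lower genes of the same rule, BOLA2B, which acts in handling iron-sulfur clusters, stood at 134 and 111 with vehicle and at 86.3 and 90.0 with MeS-chetomin at 5 h. The 12 h values were 99.1 and 96.4 against 66.1 and 56.4, for log2 differences of -0.46 and -0.67. Both BOLA2B and SULT1A4 have a near-identical copy, so their values are uncertain. RPL13P12, RPL21P119 and RPL32P18 are pseudogenes of ribosomal proteins, and AL139260.3, AP001324.1, CLEC4OP, CRYBG2 and NOPCHAP1 were the others. HBA2, alpha globin, which shares its sequence with HBA1 and had a mean under 5 in these libraries, stood at 5.05 and 1.89 against 1.62 and 0.19 at 5 h and at 3.2 and 1.88 against 0.5 and 0 at 12 h.

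Genes of the chetomin response, a list drawn up with results of these libraries known, gave no call between MeS-chetomin and vehicle. HMOX1, the heme oxygenase induced by oxidative and electrophilic stress, was at 15.1 and 16.7 with vehicle and at 17.3 and 19.9 with MeS-chetomin at 5 h. Its log2 difference was 0.21, with a 95% interval of -0.25 to 0.68. At 12 h the values were 19.8 and 24.8 against 19.4 and 20.4, a difference of -0.15 with an interval of -0.58 to 0.28. Chetomin, in the same tables, gave 977 and 963 at 5 h and 1501 and 1472 at 12 h. Across the 24 genes listed as references for the stress response, 0 were called at either time. Their median log2 difference was 0.183 at 5 h and -0.049 at 12 h, beside 0.109 and 0.014 over all genes. The list mixes directions: 6 were called higher and 16 lower with MeS-chetomin than with chetomin at 5 h. A median or a count of higher genes therefore does not measure a stress response in these 24 genes. At 5 h their differences ran from -0.517 to 0.797, with 16 of the 24 higher without overlap, beside 37.2% of all genes, and 3 at an unadjusted p under 0.05. The 95% interval of the log2 difference lay within 1 unit of 0 for 20 of the 24 at 5 h, for 23 at 12 h and for all 24 in the average over both times. Over all genes it did so for 77% at 5 h and for 89.2% at 12 h. For the rest the interval reached 1 unit or more from 0 on at least 1 side.

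**Figure D3:**
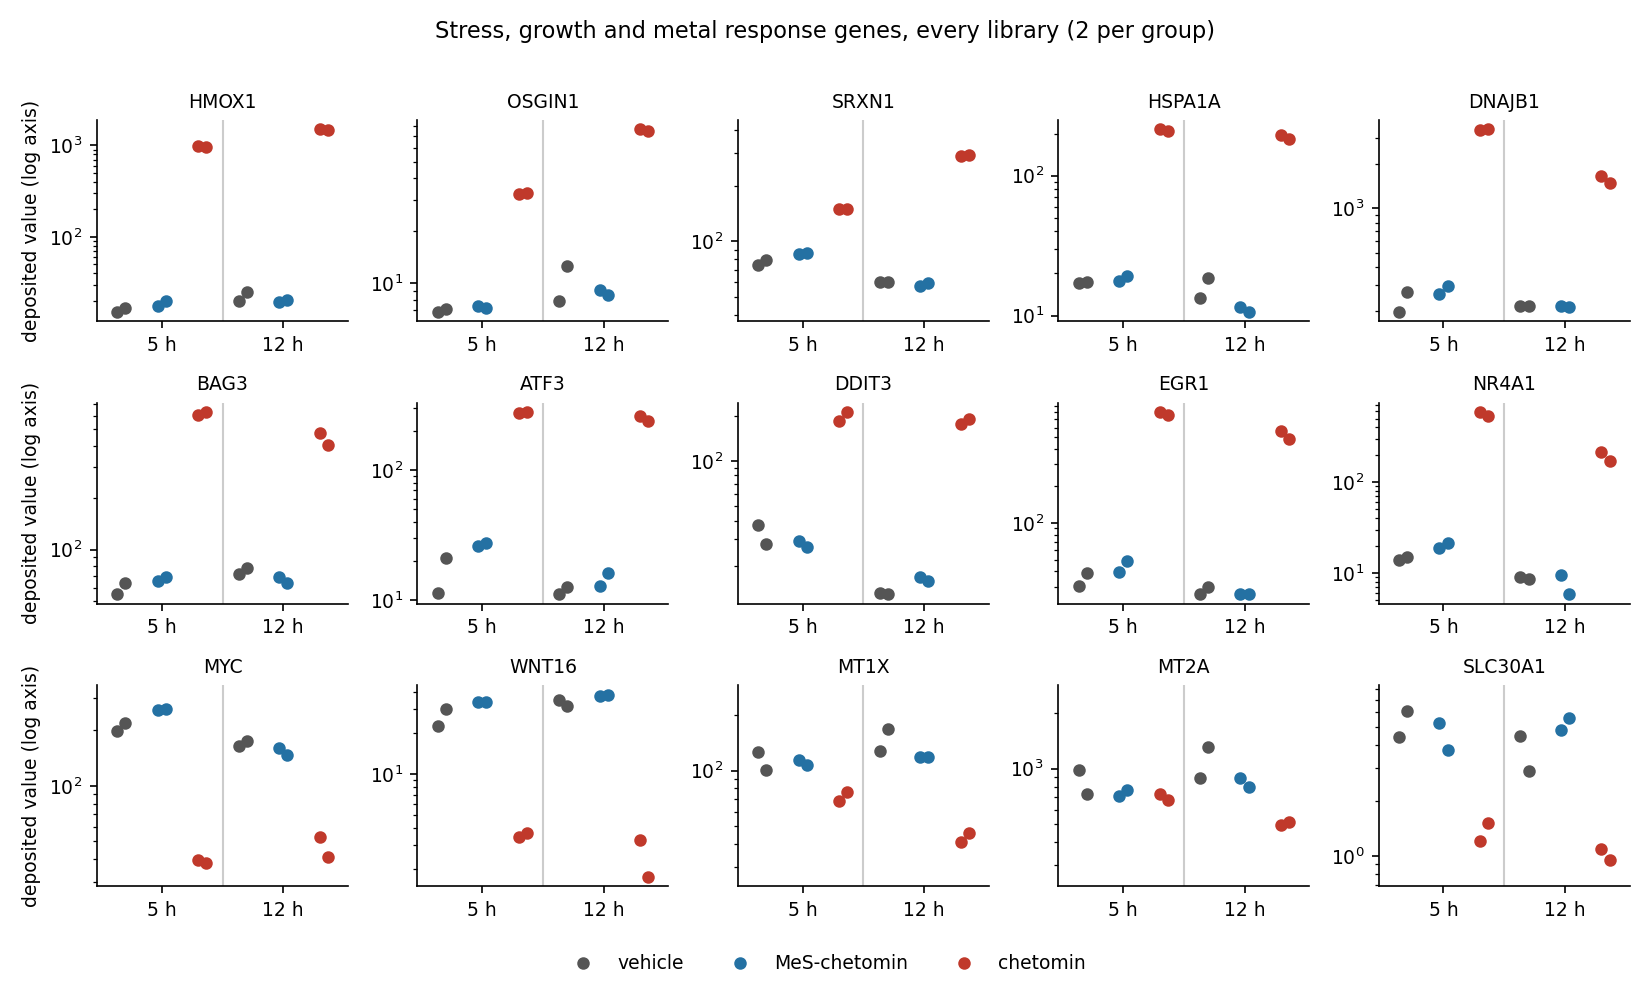
Each panel is 1 stress, growth or metal response gene, with the deposited value of every single library on a log axis for vehicle, MeS-chetomin and chetomin at 5 h and at 12 h, 2 points a group. For HMOX1 the MeS-chetomin points lie between 17.3 and 20.4, near the vehicle points, and the chetomin points lie at 963 or above.

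The metal response genes were likewise not called. MT2A, a metallothionein, stood at 984 and 728 with vehicle and at 707 and 765 with MeS-chetomin at 5 h, and at 885 and 1318 against 885 and 797 at 12 h. Its log2 differences were -0.20 and -0.36, and the groups overlapped at both times, at 12 h by less than 1 unit. SLC30A1, the zinc exporter, stood at 4.4 and 6.08 against 5.29 and 3.74 at 5 h and at 4.49 and 2.9 against 4.83 and 5.61 at 12 h, for log2 differences of -0.18 and 0.42. MTF1, the zinc sensor, stood at 3.24 and 4.55 against 6.95 and 9.5 at 5 h, a log2 difference of 0.91 with a limma adjusted p of 0.266, and its difference at 12 h was 0.31. The 8 metal response genes measured had a median of -0.185 at 5 h and -0.182 at 12 h. Against vehicle replicate 1 alone the 12 h median was 0.077, and against vehicle replicate 2 alone it was -0.442, so its sign turned with the vehicle library. The metallothioneins are close copies of one another, and reads may be shared among them.

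The acetyltransferases gave no call against vehicle. EP300 stood at 3.52 and 5.94 with vehicle and at 9.73 and 13.5 with MeS-chetomin at 5 h, and at 14.9 and 10.6 against 18.4 and 16.3 at 12 h. The log2 difference was 1.16 at 5 h, with a 95% interval of 0.46 to 1.85 and a limma adjusted p of 0.266, and 0.43 at 12 h. CREBBP stood at 5.03 and 7.73 against 10.9 and 14.2 at 5 h and at 16.2 and 13.2 against 16.4 and 14.6 at 12 h, for log2 differences of 0.89 (limma adjusted p = 0.266) and 0.08. For both genes the groups were apart at 5 h, and at 12 h they were apart for EP300 and overlapped for CREBBP. The vehicle level of both genes was itself higher at 12 h than at 5 h in separately normalized tables. The 14 acetyltransferases had a median of 0.592 at 5 h, with 10 of 14 higher without overlap, beside 37.2% of all genes, and of 0.137 at 12 h. The 5 h median was 0.896 against vehicle replicate 1 alone and 0.399 against vehicle replicate 2 alone, and the 12 h median was 0 and 0.261. Of these 14, 5 were higher without overlap at both times, beside 1009 of 14029 genes in all. Opposite order at the 2 times was seen for 0 of them, beside 1099 genes in all.

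The 27 histone methyltransferases had a median log2 difference of 0.514 at 5 h, with 19 of 27 higher without overlap, beside 37.2% of all genes, and of 0.121 at 12 h. Against vehicle replicates 1 and 2 alone their median was 0.639 and 0.261 at 5 h and 0.003 and 0.278 at 12 h. KMT2D, which methylates lysine 4 of histone H3 at enhancers, stood at 5.66 and 13.7 with vehicle and at 20.8 and 28.0 with MeS-chetomin at 5 h. By 12 h it stood at 20.3 and 22.4 against 27.3 and 23.7, for log2 differences of 1.35 (limma adjusted p = 0.266) and 0.24. The groups were apart at both times, and vehicle itself differed widely between its replicates at 5 h. The 23 chromatin remodellers had medians of 0.257 and 0.097. SRCAP, the ATPase that places the histone variant H2A.Z, stood at 4.35 and 8.51 against 15.1 and 21.5 at 5 h and at 21.4 and 18.7 against 22.6 and 19.5 at 12 h. Its log2 difference was 1.41 at 5 h (limma adjusted p = 0.266) and 0.07 at 12 h, where the groups overlapped. ARID1B, a subunit of the BAF complex, differed by 1.07 and -0.06. Among the acetyltransferases the nuclear receptor coactivators NCOA2 and NCOA3 differed by 1.21 and 0.73 at 5 h and by 0.29 and 0.46 at 12 h. No member of these lists was called at either time.

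Large coregulator complexes were measured alongside. The 31 Mediator subunits, which link transcription factors to RNA polymerase II, had a median of 0.207 at 5 h and 0.005 at 12 h, and the first was 0.28 against vehicle replicate 1 and 0.01 against vehicle replicate 2. MED12, of its kinase module, stood at 2.54 and 3.47 with vehicle and at 6.66 and 8.88 with MeS-chetomin at 5 h, and at 9.82 and 8.59 against 11.1 and 7.63 at 12 h. Its log2 difference was thus 1.13 at 5 h (limma adjusted p = 0.266) and near 0 at 12 h. The Integrator complex, which processes and terminates transcripts, had 14 members with medians of 0.191 and 0.1, and 0.357 and 0.106 against the single vehicle libraries at 5 h. The 17 histone deacetylases had medians of 0.114 and -0.054, and HDAC4 differed by 1.3 at 5 h and -0.30 at 12 h, without overlap in either case. The 35 histone genes had medians of -0.181 and -0.114. None of these was called, and the 5 h median of the histones was -0.677 against vehicle replicate 1 and 0.168 against vehicle replicate 2.

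The hypoxia list, targets and partners of HIF-1, had 24 members measured and 0 called, with a median log2 difference of 0.233 at 5 h and 0.079 at 12 h. Against vehicle replicate 1 the 5 h median was 0.438, and against vehicle replicate 2 it was 0.145. Of these 24, 6 were higher without overlap at both times, beside 1009 of 14029 genes in all, and 1 changed order, beside 1099. PDK1, the kinase by which HIF-1 restrains pyruvate oxidation, stood at 0.71 and 1.19 with vehicle against 2.97 and 2.38 at 5 h and at 1.42 and 1.64 against 2.67 and 2.9 at 12 h. Its log2 differences were 0.92 and 0.58, and the average over both times was 0.75 with a limma adjusted p of 0.399. ARNT, the constant partner subunit of HIF-1, stood at 3.45 and 6.24 against 9.91 and 14 at 5 h, a log2 difference of 1.17 with a limma adjusted p of 0.266. The 12 h values were 16.5 and 11.9 against 21.8 and 15.3, a difference of 0.36. EGLN1, the oxygen-sensing hydroxylase that marks HIF-1 for degradation, differed by -0.05 and 0.45. PDK1 was thus apart from vehicle at both times, ARNT at 5 h alone, and EGLN1 overlapped at 5 h.

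Wnt targets gave no call at either time. The 19 measured at 5 h had a median of 0.385, which was 0.591 against vehicle replicate 1 and 0.241 against vehicle replicate 2, and the 20 measured at 12 h had 0.024. CCND1, the cyclin of G1, stood at 110 and 150 against 236 and 371 at 5 h, above vehicle. At 12 h it stood at 155 and 248 against 155 and 132. The groups were barely apart there, with 155.26 the lower vehicle value and 155.05 the higher MeS-chetomin value. Heat shock genes had medians of 0.082 and 0.019, NRF2 targets of 0.12 and 0.023, and immediate early genes of 0.201 and -0.094, each with 0 called. Against vehicle replicates 1 and 2 alone their 5 h medians were 0.183 and 0.011, 0.192 and 0.042, and 0.362 and 0.173. The sign of the median turned with scaling for heat shock genes and NRF2 targets at both times and for Wnt targets at 12 h. MYC, a target of both Wnt and mitogen signals, stood at 198 and 220 with vehicle and at 256 and 262 with MeS-chetomin at 5 h and at 164 and 174 against 161 and 147 at 12 h.

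Signalling and damage lists were not called either, apart from MDC1. The 12 NF-kB targets had medians of 0.256 and -0.137, the first being 0.315 against vehicle replicate 1 and 0.124 against vehicle replicate 2. Of these 12, 3 were without overlap in opposite directions at the 2 times, beside 1099 of 14029 genes in all (7.83%). RELA, the activating subunit of NF-kB, differed by 0.74 at 5 h and -0.15 at 12 h. The DNA damage response list of 25 genes held MDC1 as its one called member at 5 h, with medians of 0.131 and 0.114, which ran from 0.306 to 0.005 and from 0.038 to 0.317 over vehicle replicates 1 and 2. MRE11, a nuclease of break repair, differed by 0.37 and 0.61, and RIF1, which protects broken ends, by 0.13 and 0.58.

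Growth and metabolism lists gave no call. The 30 DNA replication genes had medians of 0.113 and 0.018, the 30 mitosis genes 0.038 and 0.12, the 30 ribosome biogenesis genes 0.042 and -0.002 and the 25 cholesterol synthesis genes 0.115 and -0.002. POLR1A, the large subunit of RNA polymerase I, differed by 0.85 at 5 h and was level with vehicle at 12 h. The 30 autophagy genes had medians of 0.189 and -0.018, the integrated stress response list of 24 had 0.125 and 0.028, and the 19 ER chaperones had -0.014 and -0.015. The proteasome list of 39 had -0.235 and 0.002, with 21 lower without overlap at 5 h, beside 16.2% of all genes, and its 5 h median was -0.359 against vehicle replicate 1 and -0.105 against vehicle replicate 2. The medians at 5 h against those replicates were 0.209 and 0.07 for DNA replication, 0.213 and -0.059 for mitosis, 0.277 and 0.02 for cholesterol synthesis, 0.286 and 0.058 for autophagy and 0.126 and 0.027 for ribosome biogenesis. Signs at these small sizes turned with scaling for DNA replication, the integrated stress response, mitosis at 5 h, ribosome biogenesis at 5 h, cholesterol synthesis at 5 h and the proteasome at 12 h.

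Zinc and iron genes outside the metal response gave no call either. The 18 zinc transporters had medians of 0.078 and 0.059, of which the first turned sign with scaling and was 0.309 and -0.047 against the single vehicle libraries. SLC39A14, an importer of zinc and iron, stood at 24.2 and 39.4 with vehicle and at 48.1 and 55.9 with MeS-chetomin at 5 h, and at 41.8 and 35.6 against 40.8 and 42.5 at 12 h. SLC39A10, another zinc importer, differed by 0.68 and 0.45 and was higher without overlap at both times, with 2.69 and 6.27 against 7.09 and 7.52 at 5 h. Iron and copper handling had medians of -0.015 over 22 genes and 0.025 over 24. TFRC, the transferrin receptor, differed by 0.34 and 0.35.

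The ribosomal protein and nuclear respiratory chain lists had negative medians at both times, without a call. Of the 78 cytosolic ribosomal proteins 77 had a negative log2 difference at 5 h and 58 at 12 h, with medians of -0.367 and -0.112, and none was called. At 5 h, 47 of 78 were lower without overlap, beside 16.2% of all genes, and 17 of the 78 were so at both times, beside 357 of 14029 genes in all. RPL24, a protein of the large subunit, stood at 3564 and 2333 with vehicle and at 1856 and 1507 with MeS-chetomin at 5 h, a log2 difference of -0.79. At 12 h it stood at 1526 and 1234 against 1594 and 1667, so the order of the groups was reversed there, with a difference of 0.25. The share of summed values held by ribosomal proteins was 24.71% in vehicle replicate 1 at 5 h and 19.65% to 21.71% in the other 7 libraries. Against that replicate alone the 5 h median was -0.628, and against vehicle replicate 2 it was -0.089. The 43 nuclear genes of the respiratory chain had medians of -0.317 and -0.184, with -0.597 and -0.088 against the single vehicle libraries at 5 h and -0.039 and -0.366 at 12 h. The size of both lists' medians therefore moved by more than 1.5 times with the vehicle library used, and what moved it was not tested.

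The 13 mitochondrially encoded genes had a median log2 difference of 0.257 at 5 h, with 10 positive, and of 0.354 at 12 h, all 13 positive. MT-ATP6, a subunit of the ATP synthase, stood at 3191 and 3323 with vehicle and at 4282 and 4422 with MeS-chetomin at 5 h. At 12 h it stood at 5953 and 4507 against 6437 and 6511, so the groups were apart at both times, with log2 differences of 0.42 and 0.32. MT-ND6, the one message of the light strand, went in opposite directions, with -0.37 and 0.55. The 7 genes that were higher without overlap at both times are 7 of 13, beside 1009 of 14029 genes in all, and 2 changed order, beside 1099. None was called, and at 12 h the median was 0.1 against vehicle replicate 1 and 0.522 against vehicle replicate 2. The mitochondrial share of the values was 4.484% in that second replicate and 6.877% to 7.606% in the other 12 h libraries.

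**Figure D4:**
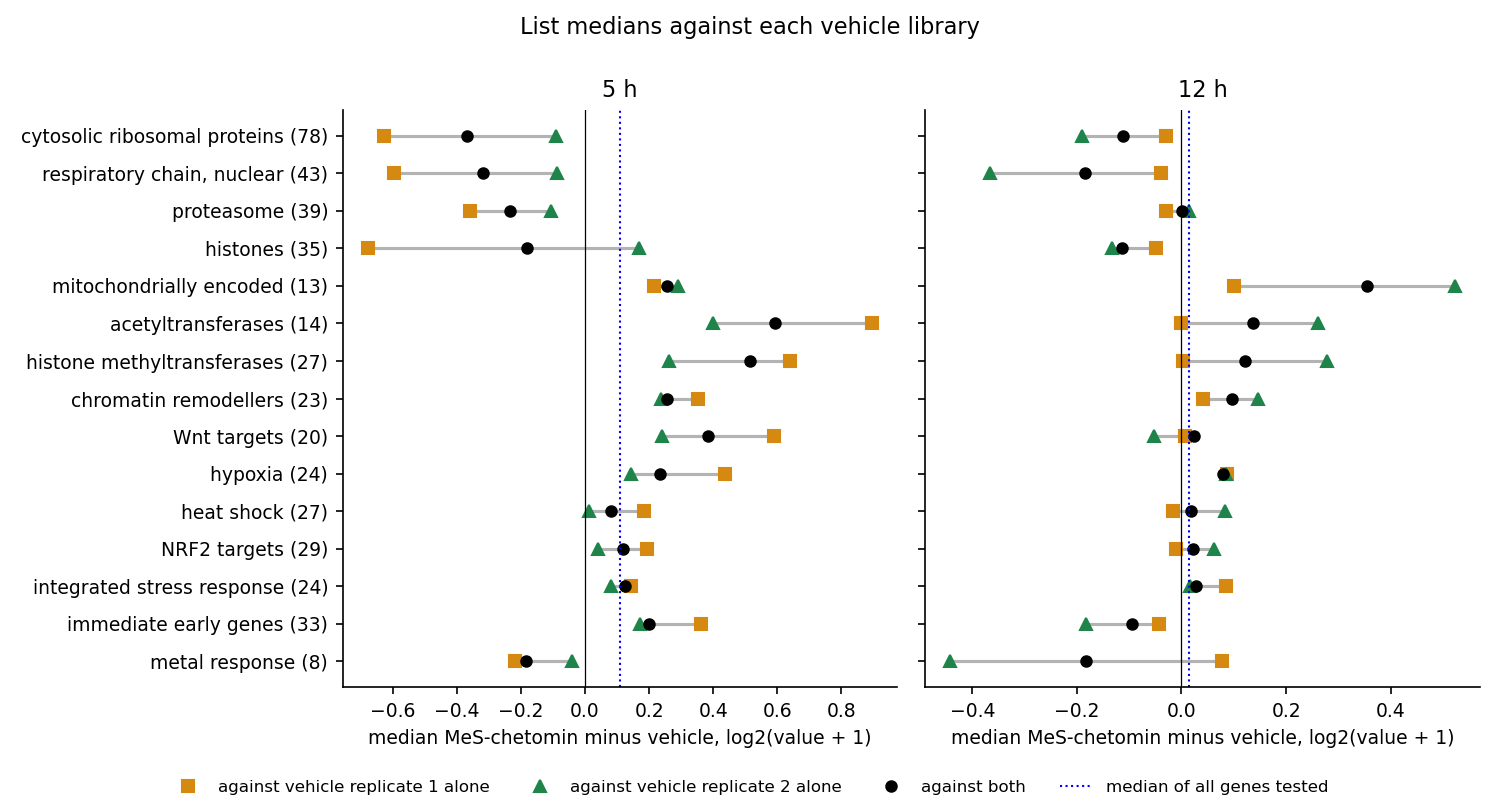
Each row is a gene list and each point the median log2 difference between MeS-chetomin and vehicle over its measured members, against the mean of both vehicle libraries and against each single vehicle library, at 5 h and at 12 h. At 5 h the points against vehicle replicate 1 lie farther from 0 than those against vehicle replicate 2 for the ribosomal proteins, the respiratory chain and the acetyltransferases.

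Scaling by medians of ratios moved the median of all genes at 5 h from 0.109 to -0.006. Relative to that median, the ribosomal proteins stood at -0.476 with the values as deposited and at -0.534 after this scaling, the respiratory chain at -0.426 and -0.483, and the acetyltransferases at 0.483 and 0.458. The medians of some lists changed sign with it at 5 h, as for the histone deacetylases (0.114 and -0.043) and the DNA damage response (0.131 and -0.023). Others kept it, as for the ER chaperones (-0.014 and -0.185).

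Differences also followed base composition and length. At 12 h the median log2 difference with MeS-chetomin was 0.267 in the lowest GC bin and -0.198 in the highest. Against vehicle replicate 1 alone, the first MeS-chetomin library ran only from -0.032 to 0.04 over the same bins. At 5 h the longest of 5 bins by transcript length had a median of 0.254, and vehicle 1 minus vehicle 2 had -0.356 in that bin. After the values of each library were centred by GC content and length, limma called 2 genes at 5 h, the SDHD entry and RBM14-RBM4. The Pearson correlation of the differences between the times was 0.19 over 10005 genes after centring and 0.11 over the same genes before.

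**Figure D5:**
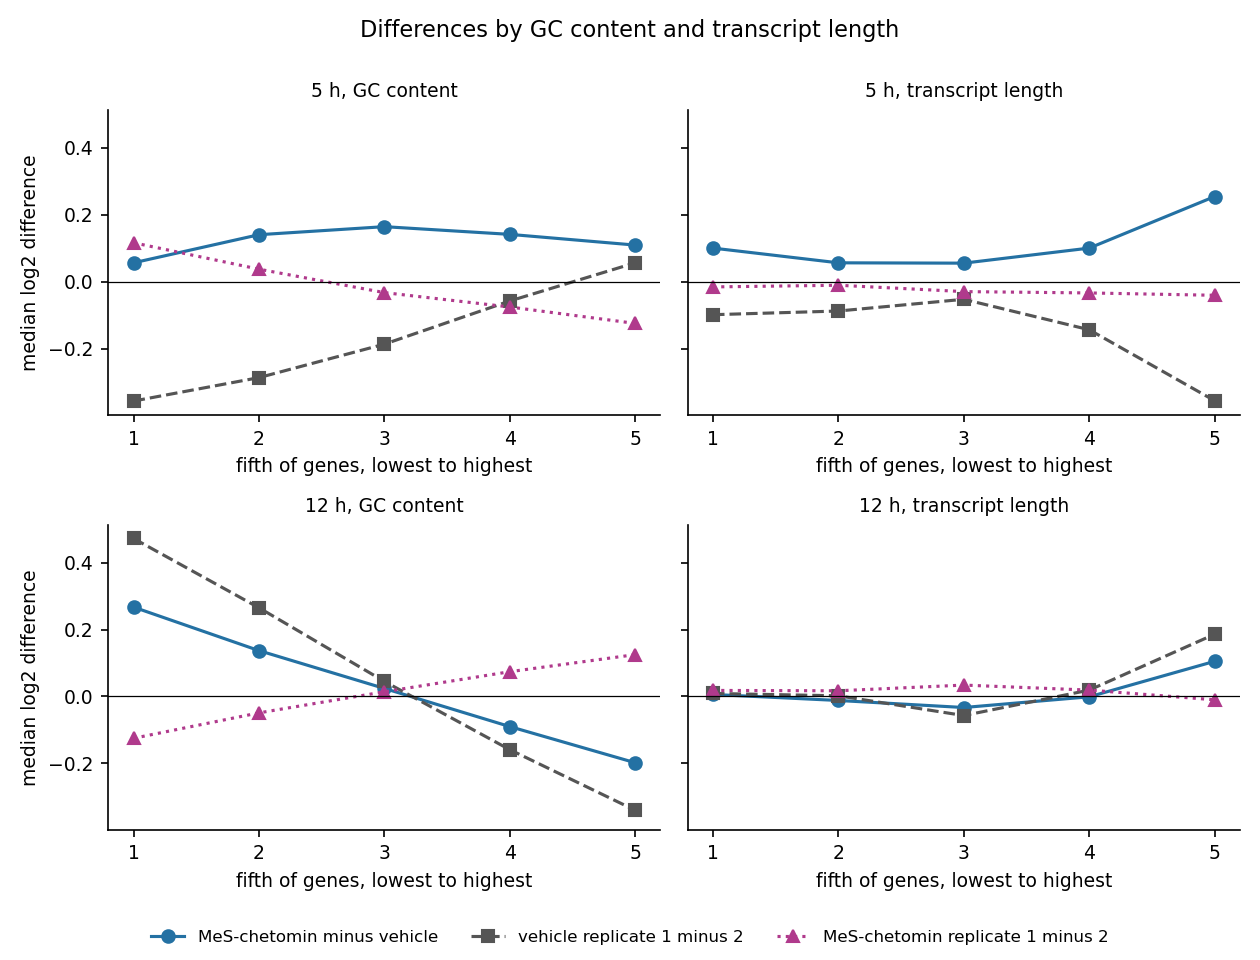
The median log2 difference is plotted over 5 equal bins of genes, from lowest to highest GC content or transcript length, for MeS-chetomin minus vehicle, for vehicle replicate 1 minus 2 and for MeS-chetomin replicate 1 minus 2, at 5 h and at 12 h. At 12 h the MeS-chetomin minus vehicle line falls with GC content from 0.267 to -0.198 and the vehicle replicate line from 0.472 to -0.34.

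MeS-chetomin was set directly against chetomin and against MeS-chaetocin at each time, which makes 4 comparisons, each adjusted over its own genes. It differed widely from chetomin. At 5 h 4669 of 14222 genes were called (32.8%), with 3393 higher with MeS-chetomin (23.9%) and 1276 lower (8.97%). At 12 h limma called 7290 of 15381 (47.4%), with 4405 higher (28.6%) and 2885 lower (18.8%). The split depended on scaling: by medians of ratios it was 2079 higher and 1984 lower at 5 h and 2704 and 3905 at 12 h, and on the authors' CPM scale 1587 and 3030, and 1866 and 4675. The labels name the change in structure between the pair as the depletion of sulfide.

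The stress genes were lower with MeS-chetomin than with chetomin. These genes and lists, and those that follow, were chosen with earlier results of these libraries known. Their p-values and shares against chetomin therefore describe the chosen genes and give no independent support. HMOX1 was lower by a log2 difference of -5.63 ± 0.13 (SE) at 5 h (limma adjusted p = 1.24e-06) and -6.15 ± 0.13 at 12 h (limma adjusted p = 3.51e-06). LINC00659, a long noncoding RNA, differed by -7.48 and -8.12. The heat shock genes included DNAJB1, a co-chaperone of HSP70, with -3.61 and -2.85, and BAG3, a nucleotide exchange factor of HSP70, with -3.18 and -2.70. HSPA1A, an inducible HSP70 with the near-identical copy HSPA1B, differed by -3.45 and -3.97. In that list 14 of 26 members were lower at 5 h, beside 8.97% of all genes, and 17 of 27 at 12 h, beside 18.8%, and none was higher. Among the immediate early genes, EGR1 differed by -4.12 and -4.28 and the nuclear receptor NR4A1 by -4.74 and -4.50, and 19 of 33 list members were lower and 9 higher at 5 h, beside 8.97% and 23.9% of all genes. ATF3 and DDIT3, transcription factors of the integrated stress response, differed by -3.34 and -2.78 at 5 h and by -4.04 and -3.41 at 12 h.

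Genes on the other side were higher with MeS-chetomin than with chetomin. MYC stood at 39.8 and 38.2 with chetomin at 5 h and at 52.5 and 41.4 at 12 h, which gave log2 differences of 2.70 ± 0.12 (SE; limma adjusted p = 1.75e-05) and 1.70 ± 0.14 (limma adjusted p = 0.000211). WNT16, a Wnt ligand, differed by 2.94 and 3.51, and DKK1, a secreted Wnt inhibitor, by 2.46 and 1.25. Of the Wnt targets 11 of 19 were higher and 0 lower at 5 h, and 12 of 20 were higher and 1 lower at 12 h, beside 23.9% and 28.6% of all genes higher at these times. Of the hypoxia list 10 of 24 were higher and 1 lower at 5 h, and 16 were higher and 2 lower at 12 h. On the CPM scale these hypoxia counts became 5 and 5, and 8 and 6. All genes on that scale gave 1587 higher and 3030 lower of 14222 at 5 h, and 1866 and 4675 of 15381 at 12 h. Of the acetyltransferases 8 of 14 were higher and 2 lower at 5 h, and 7 were higher and 1 lower at 12 h. Their higher counts became 5 on the CPM scale at 5 h and 4 under both other scalings at 12 h. By medians of ratios 2704 of all 15381 genes were higher at 12 h. EP300 differed by 1.16 at 5 h (limma adjusted p = 0.0201) and 1.10 at 12 h (limma adjusted p = 0.0104), and on the CPM scale it was not called at 5 h. At 5 h it also stood 1.16 above vehicle with MeS-chetomin, so chetomin and vehicle were about level for EP300 at that time. Against chetomin, HAT1, which acetylates new histone H4, went the other way, with -0.65 and -0.98.

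Of the 8 metal response genes 2 were called higher and 1 lower with MeS-chetomin than with chetomin at 5 h. Over all genes these shares were 23.9% and 8.97%. At 12 h 5 were higher and 0 lower, beside 28.6% and 18.8% of all genes, and the 5 became 2 under both other scalings. Among these genes SLC30A1 stood at 1.2 and 1.51 with chetomin at 5 h and at 1.09 and 0.95 at 12 h. It was higher with MeS-chetomin by a log2 difference of 1.22 (limma adjusted p = 0.00774) and 1.62 (limma adjusted p = 0.00153), and it was called on each scale. MT1X was higher by 0.61 at 5 h (limma adjusted p = 0.0159) and 1.43 at 12 h (limma adjusted p = 0.000563), and the 5 h call was lost under both other scalings. MT2A differed by 0.07 at 5 h, which was not called, and by 0.74 at 12 h (limma adjusted p = 0.016), a call lost under both other scalings. The ribosomal proteins gave 0 calls of 78 at 5 h and 59 lower at 12 h, beside 18.8% of all genes. On the CPM scale 63 were lower at 5 h, beside 3030 of 14222 genes in all.

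Set against MeS-chaetocin, the sulfide-depleted analog of chaetocin at the same dose and times, limma made no call among 14195 genes at 5 h (0 calls, 0%), with 554 at an unadjusted p under 0.05 and a smallest adjusted p of 0.635. At the later time it called 1 of 15251 (0.00656%), while 4145 genes (27.2%) had an unadjusted p under 0.05. The called gene was ZBTB45P1, a processed pseudogene at chr2:109986939-109988394 opposite LINC01123. It was listed at 0 in both MeS-chetomin libraries and at 3.94 and 3.38 with MeS-chaetocin, with vehicle at 0.48 and 0.26. Without vehicle replicate 1 or 2 at 12 h, which enter only the estimate of the spread, 2447 and 2361 genes were called.

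The intervals of the difference between the 2 analogs were wide for many genes. The 95% interval lay within 1 unit of 0 for 64% of genes at 5 h and for 79.2% at 12 h. HMOX1 stood at 46.4 and 50.2 with MeS-chaetocin at 5 h and at 39.2 and 38.2 at 12 h, above both MeS-chetomin and vehicle. The log2 difference of MeS-chetomin minus MeS-chaetocin was -1.33 (-1.77 to -0.89) at 5 h and -0.93 (-1.27 to -0.58) at 12 h, with limma adjusted p of 0.635 and 0.137. WNT16 went the other way, with 1.72 (1.01 to 2.43) at 5 h and 1.12 (0.78 to 1.45) at 12 h, at the same adjusted p. OSGIN1, an NRF2 target, differed by -1.02 and -0.91. The pair of analogs was therefore not shown to differ in these genes after adjustment, nor shown to act alike, since these intervals leave out 0 before adjustment.

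In the authors' deposited table of MeS-chetomin against vehicle, 23 genes had a q-value under 0.05 at 5 h, 14 higher and 9 lower. Of these 23, 9 were called here too. The SDHD entry (q = 0.102), RBM14-RBM4 (q = 0.167) and MDC1 (q = 0.306) were not among the 23. Their log2 fold changes at 5 h in the authors' deposited table were 5.39, 1.60 and 0.66. At 12 h the authors' deposited table held 10, with 3 higher and 7 lower, all with a mean value under 5. One gene, AC017083.4, was in both, with a log2 fold change in the authors' deposited table of 7.35 (q = 0.0398) at 5 h and -7.71 (q = 0.00451) at 12 h, which are opposite directions. HBA2 had -2.21 (q = 0.0863) and -3.37 (q = 0.00023) in the authors' deposited table. MALAT1, an abundant nuclear RNA, had -1.39 (q = 0.0395) at 5 h and 0.47 at 12 h in the authors' deposited table.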

How the data were processed

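RNA was taken from HCT116 cells, poly(A) RNA was selected and directional libraries were made, per the labels' protocols. STAR 2.5.2b, RSEM 1.3.3, edgeR and GRCh38 are named without roles, per the submitters' processing notes; no source used here gives the annotation, the strand setting or the filter on low genes. The deposited values per library are a normalized signal whose unit the file headers do not name. The authors' tables also hold log2 fold changes, with p-values and q-values adjusted by Benjamini-Hochberg. Raw counts were not used here.

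Values were tested as log2(value + 1) with limma 3.58.1 (R 4.3.3, trend, two-sided), within each time's tables, after genes constant in all fitted libraries were left out. Fits against vehicle used 4 libraries, those over both times 8, and those against chetomin or MeS-chaetocin 6. An exact permutation test of 2 against 2 cannot go below p = 0.333. Exon overlap, GC content and length came from GENCODE 29. The genes named were members of the metal response, reference stress and acetyltransferase lists, and, at a mean value of at least 5, the called genes and the 10 genes each way without overlap at both times with the largest smaller difference, and for each list at most 4 called members, or else the 2 with the largest difference; the other called genes, HBA2 and HIST2H2AA3 were added after their values were seen. Members and lists were chosen with earlier results of these data known. The script was tested on simulated data. Other pseudocounts, filters, scalings, spreads and left-out libraries were tried. Some genes that the rule for named genes gives are not reported here.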

Additional observations from a re-analysis of the deposited data

How the results depend on the processing

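The 20 calls against vehicle at 5 h became 6 with a pseudocount of 5, 13 with median-of-ratios scaling and 4 without the trend. They became 0 with a spread shared by all libraries of the time or times fitted, here the 10 of 5 h. After GC and length centring, which was chosen after seeing the data, they became 2. They stayed within 1.5 times with a pseudocount of 0.1 (24), a mean value of at least 1 (27) and the authors' CPM scale (16). Leaving out 1 library at a time gave 0 to 1068, and with genes constant in the remaining libraries kept, chosen after seeing the data, 0 without either vehicle library and 80 and 59 without MeS-chetomin replicates 1 and 2. Leave-one-out ranges elsewhere were 0 to 1 against vehicle at 12 h, 1566 to 6778 and 3032 to 8766 against chetomin at 5 h and 12 h, 0 to 24 and 0 to 2447 against MeS-chaetocin, 0 to 1 for the average over both times and 0 to 2 for the change between them. Against MeS-chaetocin at 12 h the 1 call became 2 with a pseudocount of 0.1, 2 with a mean value of at least 1, 513 with the shared spread and 0 without the trend. The average over both times gave 1 call, RBM14-RBM4, with a pseudocount of 0.1 or a mean value of at least 1. The change between the times gave 1 call with a pseudocount of 0.1, 2 with a mean value of at least 1 (GUSBP14 and RBM14-RBM4) and 1 with the shared spread (GUSBP14). The cause of these shifts was not tested. None of the 20 genes called at 5 h reversed, nor any named gene called against chetomin or MeS-chaetocin; the other genes called against chetomin were not followed singly.

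The replicate numbers were not taken as pairs, since same-numbered libraries had deviations correlated at 0.10 at 5 h and -0.26 at 12 h. A replicate block gave 1149 calls at 5 h (891 higher), 6 at 12 h, 2 in the same direction at both times and 0 against MeS-chaetocin at 12 h. The crossed pairing at 12 h, chosen after seeing the data, gave 0. With 2 libraries a group, the median half-width of the 95% interval was 0.5 at 5 h and 0.46 at 12 h on the log2 scale. The depth is a rough estimate from the steps between low values, so no counting limit is given for values listed at 0.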
